A study of Mus musculus with 6 samples.

Results

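The mouse microRNA (miRNA) array used for bone-marrow-derived macrophages carries 4 entries, mmu-miR-689, mmu-miR-709, mmu-miR-715 and mmu-miR-720, that are thought to match fragments of ribosomal RNA (rRNA), transfer RNA (tRNA) or similar RNAs in place of true miRNAs. They were chosen by name and are 4 of 611 mouse miRNAs on the array. The choice was made with earlier results on these same arrays in view, among them the genotype differences of miR-689 and miR-715, so levels and genotype differences of the 4 entries are given as a description. Standard errors and 95% intervals come from limma, a method that draws the spread of each miRNA towards that of all tested miRNAs. An interval can thus be narrower or wider than an entry's own samples would give. Neither is adjusted for the number of miRNAs or used as a test, and the fit over the whole array is given for its count of calls. Macrophages came from female C57BL/6 mice carrying MxCre, a Cre recombinase under the interferon-responsive Mx promoter, and a floxed gene for RBP-J, the DNA-binding protein through which Notch receptors switch on target genes. The 3 knockout samples (labelled KO) came from MxCre-RBP-Jf/f mice, with both alleles floxed. The 3 control samples (labelled WT) came from MxCre-RBP-Jf/+ mice, with 1 allele floxed, so controls also carried Cre and could lose 1 copy. Mice of both groups had received poly(I)-poly(C), which induces the Mx promoter, and macrophages of both groups had been stimulated with lipopolysaccharide (LPS) for 24 h. Ages are not in the labels, the array does not measure RBP-J mRNA, and the labels do not say whether replicates are separate animals or cultures, so any error or p-value covers the spread of these 6 samples alone, which may be technical. The study's question was which miRNAs act downstream of Notch signalling in macrophage polarization.

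A miRNA is cut from a hairpin precursor by Drosha and Dicer and then guides an Argonaute protein to target mRNAs. Ribosomal and transfer RNA are the most abundant RNAs of a cell, and short pieces of them were at times registered as miRNAs when small RNAs were first cloned and sequenced. The best known case is miR-720, whose registered sequence matches a threonine tRNA. miR-709 has been studied in mouse cells as a miRNA enriched in the nucleus that binds the precursor of miR-15a and miR-16-1. The labelling kit attaches Cy3 to RNA 3′ ends, so other short RNAs with a free 3′ end can be labelled too. Probe sequences were not used here, and whether rRNA or tRNA pieces gave the signal on these probes was not tested.

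Of the 4 entries, 1 had a gene record in the RefSeq table of assembly GRCm38.p6 (Mir709, which overlaps Rfx1, a transcription factor gene) and 0 had a mature sequence there. The array holds 40 other entries with numbers from that of miR-680 to that of miR-721, the range in which the 4 lie. The RefSeq mature sequences of 4 of those that were detected are shown because they are the nearest comparison by name, followed by miR-291b-5p, whose pattern over the arrays was the most like that of miR-715. Each is written 5′ to 3′ with the seed, bases 2 to 8, in capitals.
miR-680: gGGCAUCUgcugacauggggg
miR-690: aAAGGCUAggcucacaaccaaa
miR-705: gGUGGGAGguggggugggca
miR-721: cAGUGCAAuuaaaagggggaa
miR-291b-5p: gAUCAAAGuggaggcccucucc
No seed was shared among these 5. The motif GGGG, searched on the mature strand alone, was found in 3 of the 4 numbered entries (miR-680, miR-705 and miR-721). It was found in 11.2% of 1679 mature mouse miRNAs in the table, detected or not. The 4 are those of the 6 tested numbered entries whose array name is in the table. Other entries of the range, and miR-689, miR-709, miR-715 and miR-720 themselves, were not searched. The GC content was 75% for miR-705, 66.7% for miR-680, 45.5% for miR-690 and 42.9% for miR-721, beside a median of 52.2% over the table (quartiles 45.5% and 60%).

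All arrays lay on 1 slide and each was hybridised with Cy3-labelled RNA of 1 sample. Replicates 1 and 2 of both genotypes lay in slide column 1 and replicate 3 of both in column 2, and no slide row held both genotypes, so row and genotype cannot be told apart. Of the fixed cell type markers, all 6 macrophage and myeloid miRNAs were well above background on the 6 arrays. All 14 markers of other cells, from lymphocytes and platelets to endothelium, liver and muscle, were well above background on none, and their summed intensity stayed between -8.03 and 3.59 units. The 4 entries had 80 spots per array, 0 of 480 were saturated and 8 were left out as outliers. In all, 110 of the 611 miRNAs were well above background on the 6 arrays, all 4 entries among them, so no entry was kept through 1 genotype alone. The authors' gene-level tables also called all 4 detected on the 6 arrays.

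Signal is given on 2 scales. Unscaled intensity is the median of the background-subtracted spots, in the scanner's units. Scaled signal is log2 of the same value divided by the array's 75th percentile over probes well above background on all 6 arrays, so that 0 stands for that percentile. The percentile itself was 287.8, 242.6 and 352.3 units on control replicates 1, 2 and 3 and 227.1, 186.3 and 225.7 units on knockout replicates 1, 2 and 3, with every knockout array below every control array. A smaller divisor raises the scaled signal, so a signal that is equal in raw units comes out higher in the knockout after scaling.

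The tRNA-matching entry miR-720 did not separate the genotypes once arrays were scaled. Its unscaled intensity was 1461.5, 773.0 and 950.3 units on control replicates 1, 2 and 3 and 812.1, 651.0 and 818.0 units on knockout replicates 1, 2 and 3. Control replicate 1 stood above the other 5 arrays, and the groups overlapped. Scaled signal was 2.34, 1.67 and 1.43 in control and 1.84, 1.81 and 1.86 in knockout macrophages. The knockout arrays thus lay between control replicates 1 and 2, with an SD of 0.03, against 0.47 among the controls (n = 3 each). The scaled difference, knockout minus control, was 0.02 (SE 0.24; 95% interval -0.53 to 0.56), while in unscaled log2 signal it was -0.44 (SE 0.26), below the median of all tested miRNAs by 0.13. Its direction turned with the scaling and with the slide column, at -0.19 within column 1 (4 arrays) and 0.43 within column 2 (2 arrays). Without control replicate 1 the difference was 0.28 and without control replicate 3 it was -0.17.

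miR-709, the nucleus-enriched entry, had a difference close to that of the median miRNA with the main scaling. Unscaled intensity was 461.3, 269.6 and 458.6 units in control and 312.9, 278.3 and 318.8 units in knockout macrophages, in replicate order. Control replicates 1 and 3 were above all knockout arrays and control replicate 2 below them all. Scaled signal was 0.68, 0.15 and 0.38 in control and 0.46, 0.58 and 0.50 in knockout macrophages, again with the knockout arrays inside the range of the controls. The scaled difference was 0.11 (SE 0.18; 95% interval -0.30 to 0.52), which relative to the median tested miRNA was -7.0e-04. With no scaling it was -0.35 (SE 0.24), and the median miRNA then stood at -0.31. The values within slide columns 1 and 2 were 0.10 and 0.12 on the scaled signal. Leaving out each array in turn gave -0.02 (without control replicate 2) to 0.25 (without control replicate 1). The SD between samples was larger in control than in knockout for this entry and for miR-720, as it was for 76 of the 135 tested miRNAs.

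miR-689 was the entry with higher knockout than control means under all 8 scalings plotted. Its unscaled intensity was 47.5, 53.3 and 81.8 units on control replicates 1, 2 and 3 and 58.9, 55.0 and 99.8 units on knockout replicates 1, 2 and 3. The genotypes overlapped on this scale, and the 2 highest values were the 2 arrays of slide column 2. Scaled signal was -2.60, -2.19 and -2.11 in control and -1.95, -1.76 and -1.18 in knockout macrophages. All 3 knockout arrays then lay above every control array. With the main scaling this held for 2 of the 4 entries, miR-689 and miR-715, and for 10 of the 135 tested miRNAs (7.41%), while 0 of the 4 and 2.96% of the tested miRNAs lay below every control array. With no scaling it held for 0 of the 4 entries and 0% of the tested miRNAs, and 0 of the 4 but 27.4% of the tested miRNAs lay below. The genotypes also overlapped for miR-689 with quantile scaling, scaling by all probes or mr_1, gene-level totals and the authors' series matrix. They stayed apart with normexp background correction and with the mean of its probes. The share of tested miRNAs that separated was not counted under these other settings. With normexp 112 of 135 tested miRNAs were above 0 (median 0.23), and with the mean of probes 94 were (median 0.07). The scaled difference of miR-689 was 0.67 (SE 0.24; 95% interval 0.12 to 1.22), a 1.59-fold higher scaled signal, or 0.56 relative to the median miRNA. With no scaling it was 0.21 (SE 0.30), a 1.16-fold difference. Within slide column 1 the scaled difference was 0.54 and in column 2, with 1 array per genotype, 0.93. It was 0.44 without knockout replicate 3, the array with the highest signal, over 1.5 times below the value with it, and was 0.52 without control replicate 1.

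The slide column moved with miR-689. Its mean log2 unscaled signal was 5.742 over the 4 arrays of column 1 and 6.498 over the 2 of column 2, a difference of 0.76, where the median tested miRNA differed by 0.16. Both arrays of column 2 exceeded all 4 of column 1 for 17 of 135 tested miRNAs (12.6%), and miR-689 was the 1 entry of the 4 among them. On scaled signal the columns overlapped for miR-689 as for the other 3 entries. Each column holds as many control as knockout arrays, so a block for the column cannot change the difference of 0.67. It changes the error alone (SE 0.19 with the block), and whether the column bears on the difference was not tested.

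miR-715 was close to the detection limit. Its unscaled intensity was 19.3, 15.1 and 20.2 units in control and 17.7, 17.9 and 16.4 units in knockout macrophages, in replicate order. The control arrays were both above and below the knockout arrays, and the 6 values differed by no more than 1.34-fold. Scaled signal was -3.90, -4.01 and -4.13 in control and -3.68, -3.38 and -3.78 in knockout macrophages, with every knockout array above every control array. The scaled difference was 0.40 (SE 0.17; 95% interval 0.0051 to 0.79), or 0.29 relative to the median miRNA, and it turned to -0.06 (SE 0.18) with no scaling. The genotypes thus separated after division by the percentile and not in raw units. Quantile scaling gave 0.15, mr_1 scaling 0.14 and scaling by all probes 0.23, each with overlapping genotypes. Gene-level totals (0.38), normexp background correction (0.34), the authors' series matrix (0.22) and the mean over the miR-715 probes (0.18) kept them apart. That mean takes in 2 probes at the floor on all 6 arrays, whose difference is fixed at 0. The share of tested miRNAs that separated under these other settings was not counted. Leaving out each array in turn gave 0.28 (without knockout replicate 2) to 0.48 (without knockout replicate 3).

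**Figure D1:**
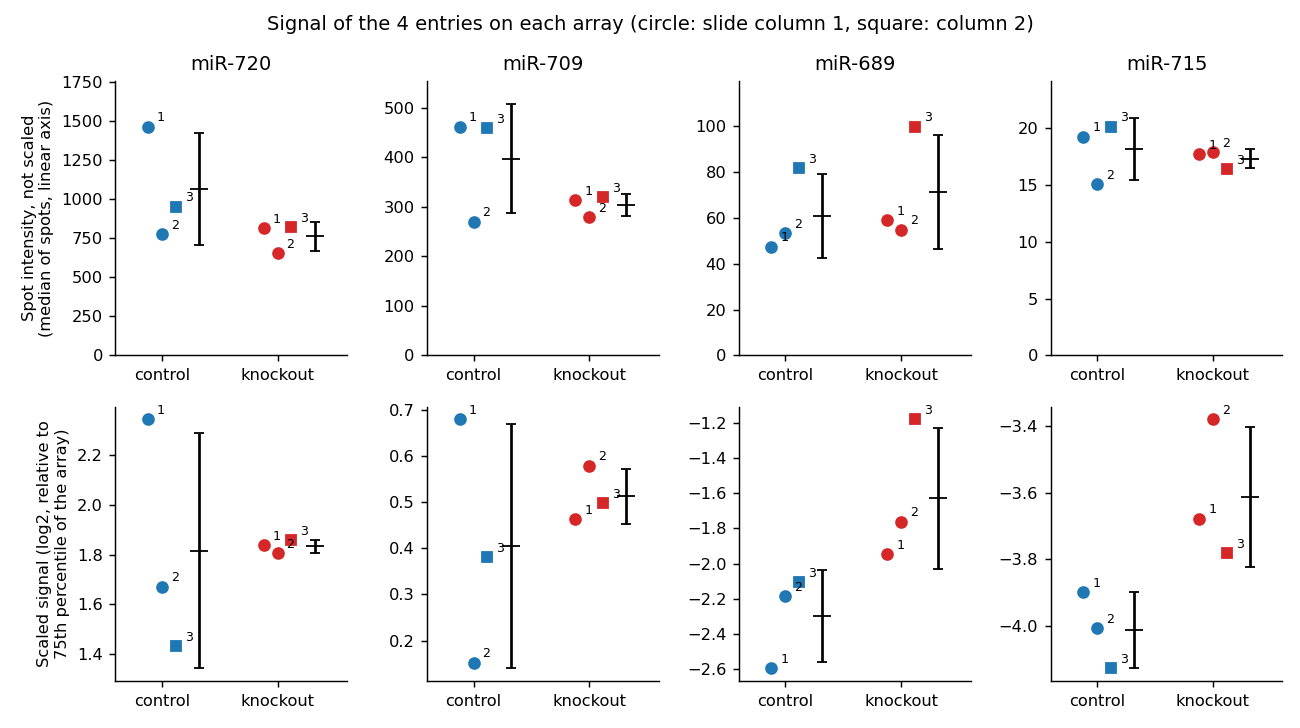
Unscaled spot intensity (upper row, scanner units, linear axis from 0) and scaled log2 signal (lower row) of the 4 entries on the 3 control (blue) and 3 knockout (red) arrays, with replicate numbers, slide column by symbol, and mean ± SD in black. The genotypes overlap for all 4 entries in the upper row, while miR-689 and miR-715 separate in the lower row.

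Each entry is measured by several probes, and these did not always give the same answer. miR-720, miR-709 and miR-689 each had 2 probes of 10 spots, all well above background on the 6 arrays. For miR-720 the probe that was not used gave a scaled difference of 0.07 (SE 0.21), beside 0.02 for the one that was, and for miR-709 it gave 0.16 (SE 0.11), beside 0.11. For miR-689 the second probe, A_54_P1979, gave 0.51 (SE 0.09) scaled and 0.06 (SE 0.23) unscaled. Between the replicate 3 arrays the unscaled signal of that probe was 26.9 units in control and 25.2 in knockout, while probe A_54_P1980 went the other way, from 81.8 to 99.8. The higher miR-689 of knockout replicate 3 in raw units therefore rested on 1 of its 2 probes.

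For miR-715 there were 4 probes of 5 spots. Probe A_54_P2127 was used, and A_54_P2128, which lay at the floor on 1 array, gave 0.32 (SE 0.08) scaled and -0.15 (SE 0.14) unscaled. The other 2 probes, at 3.52 to 10.01 units, were well above background on no array and lay at the floor on all 6, so they give no difference. Spots of 1 probe on 1 array differed with a coefficient of variation of 0.904% to 1.71% for miR-720, 2.43% to 3.92% for miR-709, 2.15% to 10.52% for miR-689 and 3.998% to 31.8% for miR-715. The highest of these was on knockout replicate 2, which also had the highest scaled miR-715 signal.

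**Figure D2:**
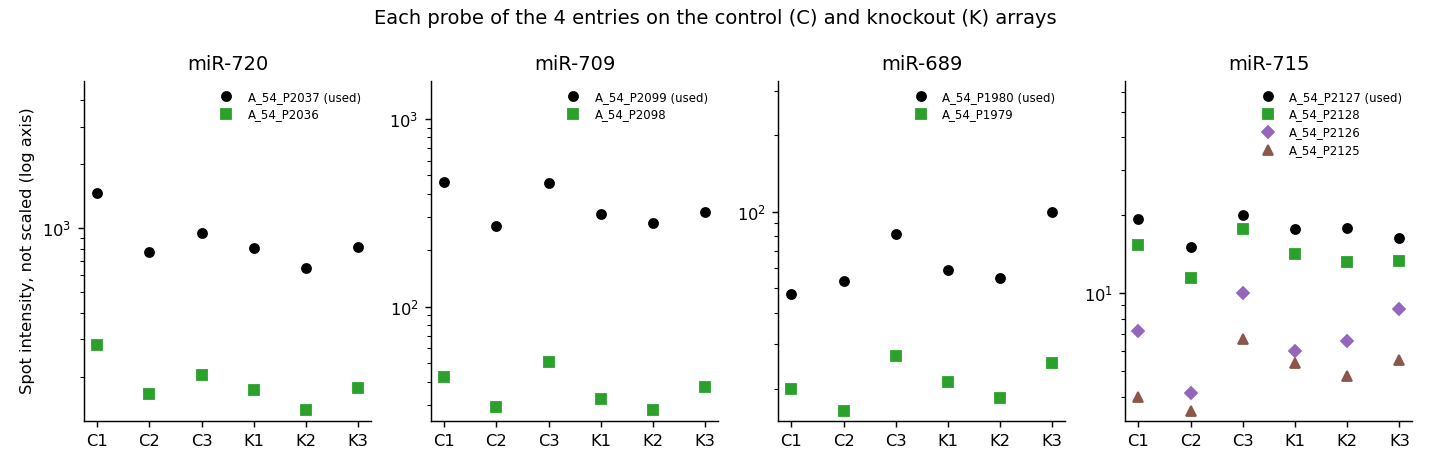
Unscaled intensity (scanner units, log axis) of every probe of the 4 entries on control (C1 to C3) and knockout (K1 to K3) arrays; each point is the median of the probe's spots. The 2 probes of miR-720 rank the 6 arrays alike, the 2 probes of miR-689 part between C3 and K3, and 2 probes of miR-715 stay at or under 10.01 units.

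With the main scaling all 4 entries had higher knockout than control means, as did most tested miRNAs. Their differences ran from 0.02 to 0.67 with a median of 0.25, beside 97 of 135 tested miRNAs above and 38 below 0 and a median of 0.11. With no scaling 1 entry was above 0 and 3 below, with a median of -0.20, beside 14 above and 121 below and a median of -0.31. Dividing by the mr_1 control spots gave 2 above and 2 below, beside 44 and 91. limma with Benjamini-Hochberg adjustment called 0 of the 135 tested miRNAs (0%), these 4 included and its lowest adjusted p was 0.637. Before adjustment 5 miRNAs were higher and 1 lower with p under 0.05. In the order of their differences, miR-689, miR-715, miR-709 and miR-720, neighbours had overlapping intervals.

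**Figure D3:**
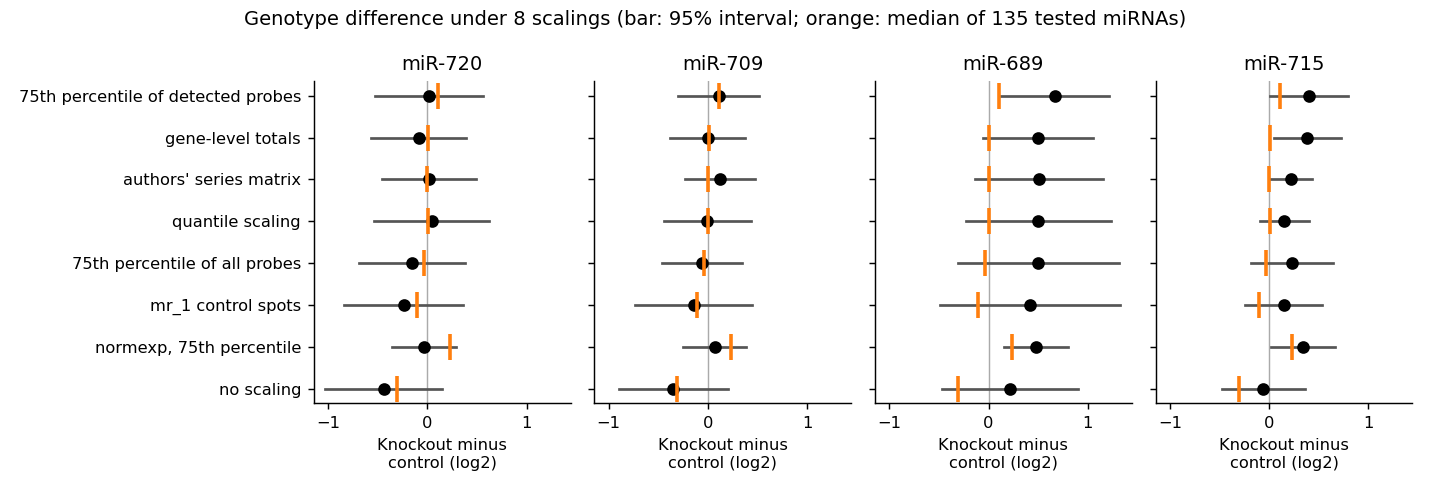
Knockout minus control difference (log2) of each entry under 8 ways of scaling, with its 95% interval, unadjusted for the number of miRNAs; orange marks are the median of the 135 tested miRNAs under the same scaling. miR-689 lies right of 0 throughout, from 0.21 to 0.67, while miR-715 runs from -0.06 to 0.40, miR-709 from -0.35 to 0.12 and miR-720 from -0.44 to 0.05.

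As a share of the summed gene-level signal of an array, which is a share of brightness and not of molecules, the 4 entries held 2.34%, 1.39% and 1.51% on control replicates 1, 2 and 3 and 1.63%, 1.73% and 1.83% on knockout replicates 1, 2 and 3. Most of this was miR-720, at 0.966% to 1.74%. The miR-689 share averaged 0.0776% ± 0.0124 (SD, n = 3) over the controls. Over the knockout arrays it averaged 0.116% ± 0.0328 (SD, n = 3), and the groups met at control replicate 3, with 0.0915%, and knockout replicate 1, with 0.0906%. miR-715 took 0.0207% ± 0.00260 (SD, n = 3) of the control signal. Its knockout share was 0.0281% ± 0.00294 (SD, n = 3), above the controls on each array. The miR-715 totals before division overlapped, at 11.28 to 17.63 units in control and 14.38 to 15.24 units in knockout macrophages. The summed signal that divides them ran from 45752 to 77705 units over the arrays. How many other miRNAs separated by share was not counted.

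The positive control spots, whose targets are not given in the sources used here, differ in brightness between arrays. Their mr_1 set read 932.4, 808.1 and 803.4 units in control and 734.7, 799.9 and 677.1 in knockout macrophages, with the knockout arrays below every control. The 20 mr_1 spots of an array spread with an SD of 216.1 to 314.5 units, and with 2 outlier spots kept knockout replicate 2 read 732.8. The other positive sets had fold ranges over the 6 arrays of 2.14 (hur_2) to 2.81 (hur_6), and the genotypes overlapped in each.

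Unscaled signal of 3 entries ran with mr_1 brightness and that of miR-689 ran against it, but no relation passed over the 4 tested. Array brightness was among the earlier results in view when the entries were chosen. The p-values for brightness, here and below, are therefore given as a description, and none is evidence of a relation. For miR-689 Pearson's r was -0.74 (two-sided exact permutation p = 0.0792, adjusted p = 0.317; n = 6) and Spearman's rho -0.83 (exact permutation p = 0.0583, adjusted p = 0.233). For miR-720 r was 0.65 (exact permutation p = 0.183, adjusted p = 0.367) and rho 0.31 (exact permutation p = 0.564, adjusted p = 0.714). miR-709 gave r = 0.50 (exact permutation p = 0.336, adjusted p = 0.404) and rho = 0.20 (exact permutation p = 0.714, adjusted p = 0.714). miR-715 gave r = 0.43 (exact permutation p = 0.404, adjusted p = 0.404) and rho = 0.31 (exact permutation p = 0.564, adjusted p = 0.714). Adjusted values are Benjamini-Hochberg over the 4 entries.

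These relations rested on control replicate 1 and knockout replicate 3, the arrays farthest from the median mr_1 brightness. Without them r was 0.12 for miR-689, 0.07 for miR-709, -0.09 for miR-715 and -0.09 for miR-720 over 4 arrays. Spearman's rho over the same 4 arrays was -0.4 for miR-689, -0.4 for miR-709, -0.2 for miR-715 and 0 for miR-720, so r and rho differed in sign for miR-689 and miR-709. Taken as deviations from the genotype means, r was -0.80 for miR-689, 0.18 for miR-709, 0.42 for miR-715 and 0.39 for miR-720. For miR-689 the permutation p of r was 0.0694 (adjusted p = 0.278). Its rho was -0.94 (permutation p = 0.0167, adjusted p = 0.0667). Deviations were permuted across both genotypes and not within each, so these p-values are approximate and not exact. Slide columns of 4 and 2 arrays and genotypes of 3 are too small for a value of their own. As a description, r with mr_1 over the 110 miRNAs detected on all arrays had a median of 0.37 (quartiles 0.07 and 0.63), and the r of miR-689 was the lowest of them.

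The choice of control set changed the picture for miR-689. Its r was -0.36 with hur_1, -0.64 with hur_2, -0.62 with hur_4 and -0.60 with hur_6, but 0.42 with the bright-corner spots (two-sided exact permutation p = 0.396). With the bright-corner spots miR-709 gave r = 0.91 (exact permutation p = 0.0111, adjusted p = 0.0444 over the 4 entries). Its rho was 0.77 (exact permutation p = 0.103, adjusted p = 0.206 over the 4 entries). Adjusted over the 24 relations of 4 entries with 6 control sets, the smallest p for r was 0.267, so none passed over this larger set. Over the 110 miRNAs the median r with the bright-corner spots was 0.65, and 104 were above 0. Counted from the lowest r of the 110, miR-689 was number 1 with hur_4, 6 with hur_2, 8 with hur_1 and with hur_6, and 26 with the bright-corner spots. After scaling, miR-689 had r = -0.91 with mr_1 (exact permutation p = 0.0264, adjusted p = 0.106). On the same scale r was 0.24 for miR-709, -0.23 for miR-715 and 0.43 for miR-720. The percentile that divides the signal and mr_1 were both lower on every knockout array, so the division itself can shift r. The r of all 110 miRNAs was not computed on scaled signal, and this p-value too is no evidence of a relation.

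**Figure D4:**
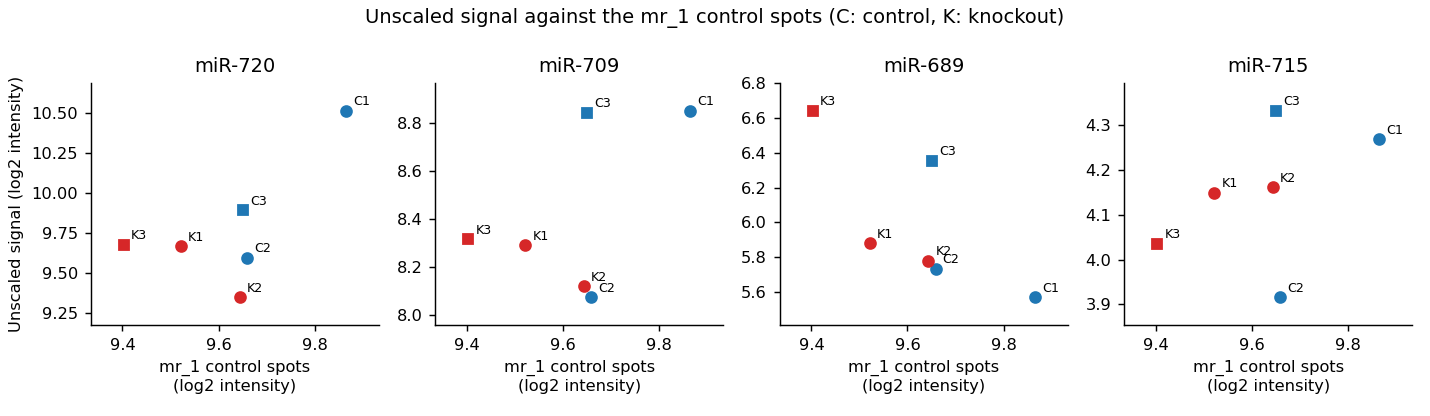
Unscaled log2 signal of each entry against log2 intensity of the mr_1 control spots on the 6 arrays (blue control, red knockout; circles slide column 1, squares column 2). C1 and K3 stand at the ends of the mr_1 axis, and without them r lies between -0.09 and 0.12 for the 4 entries.

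The 4 entries did not share a pattern over the arrays. On scaled signal their pairwise Pearson's r, a measure of likeness over 6 arrays of 1 slide, was 0.70 for miR-709 with miR-720, 0.49 for miR-709 with miR-715, 0.41 for miR-689 with miR-715 and 0.26 for miR-715 with miR-720. It was -0.01 for miR-689 with miR-709 and -0.30 for miR-689 with miR-720. On unscaled signal, where array brightness is shared, miR-709 had r = 0.84 with miR-720 and 0.83 with miR-715, while miR-689 stayed between -0.22 and 0.10 with the other 3.

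By the same measure, among 131 other tested miRNAs, those nearest to miR-689 were miR-7a (r = 0.90) and miR-98 of the let-7 seed family (r = 0.89). miR-709 was nearest to let-7a (r = 0.92) and miR-702 (r = 0.87), and miR-720 to miR-140* (r = 0.93) and miR-652 (r = 0.89). miR-715 was nearest to miR-291b-5p (r = 0.97), which lay at the floor on 2 arrays, and miR-326 (r = 0.97). Each is the highest of many over 6 points and is a description of these arrays.

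Of the 40 other entries in the range from miR-680 to miR-721, 33 were well above background on no array and 4 on all 6, and 6 were tested. limma called 0 of the 6, with 5 above and 1 below 0, differences of -0.11 to 0.43 and a median of 0.27. With no scaling all 6 were below 0, with a median of -0.18. The 4 with the smallest unadjusted p were miR-705 at 0.43 (SE 0.24), miR-680 at 0.43 (SE 0.30), miR-702 at 0.22 (SE 0.18) and miR-721 at 0.33 (SE 0.42). For miR-680 control replicate 1, at -3.68, was below the other 5 arrays at -2.66 to -2.42, and for miR-721 the same array, at -4.21, was also the lowest. In none of the 6 did the genotypes separate. The lowest scaled value of miR-689, at -2.60, was on that array too, while miR-720 and miR-709 had their highest there.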

How the data were processed

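The 6 arrays are 1-colour Agilent mouse miRNA arrays hybridised with 0.5 ug of RNA, per the labels. Feature Extraction 10.5.1.1 produced the deposited spot intensity values, with background subtraction and detrending, per the file headers. The submitters' processing notes name Agilent Feature Extraction 9.1. The deposited gene-level tables hold total intensity per miRNA. The authors' series matrix holds log2 values that followed log2 of these totals within each array (r of at least 0.999). They are not plain log2 totals, since miR-709 read 8.04 on every knockout array (SD 0) while its totals there were 230.6, 203.8 and 241.1 units. How the matrix was made was not stated in the labels or headers, and 0 of its columns belonged to no sample. Its column medians were 0 to 0.03.

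Probe medians over unflagged spots were divided by the array's 75th percentile over 200 probes well above background (at least 50% of spots flagged so) on all arrays, log2 transformed, and values under the 5th percentile of detected signals (-4.32) were set to it. A miRNA took its probe with the highest mean, and 135 miRNAs detected on at least 3 arrays were fitted by genotype alone (limma 3.58.1, R 4.3.3), calling miRNAs at a Benjamini-Hochberg adjusted p under 0.05. The script was tested on simulated data. Correlations used exact permutation over 720 pairings, which gives approximate p-values for deviations from genotype means. Named miRNAs are the 4 entries, the 2 nearest to each by r, and the 4 of the numbered list with the smallest p. Members, lists and tests were chosen with earlier results of these data known. Same-numbered arrays of the 2 genotypes had correlations of their deviations of 0.17, -0.07 and 0.37, beside -0.29 to 0.16 for arrays of different numbers. So few values cannot decide whether the numbers mark pairs, and the main fit did not take them as pairs. The number of arrays limits the precision.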

Additional observations from a re-analysis of the deposited data

How the results depend on the processing

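Alternatives changed the background correction, scaling, floor, probe summary, source of the values, filter, blocks and the arrays kept; dividing by mr_1, keeping outlier mr_1 spots, and the count of calls with no floor were chosen after seeing the data. The count of miRNAs called by limma was 0 under all 19 alternatives, with 0 to 26 higher and 0 to 26 lower at an unadjusted p under 0.05. With no scaling the differences moved to 0.21 for miR-689, -0.35 for miR-709, -0.057 for miR-715 and -0.44 for miR-720. miR-715 also moved to 0.15 with quantile scaling, 0.18 with the mean of probes (2 of its 4 probes are at the floor throughout, at a difference of 0), 0.22 in the series matrix and 0.14 with mr_1 scaling, miR-709 to -0.14 with mr_1 scaling, and miR-720 to 0.43 within slide column 2. Leaving out 1 array gave 0.44 to 0.83 for miR-689, -0.02 to 0.25 for miR-709, 0.28 to 0.48 for miR-715 and -0.17 to 0.28 for miR-720, and 0 calls each time. Each replicate number holds 1 array of each genotype, so the replicate block cannot change a difference and can change only its error. The differences were thus the same, at 0.67, 0.11, 0.40 and 0.02 for miR-689, miR-709, miR-715 and miR-720. With this block limma called 0 miRNAs, with 11 higher and 2 lower at an unadjusted p under 0.05, so the replicate numbers changed no call.

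The correlation with brightness turned for miR-689 to 0.42 with the bright-corner spots and, for Pearson's r but not for rho (-0.4), to 0.12 without the 2 farthest arrays. It turned for miR-715 to -0.23 on scaled signal, -0.095 without the 2 farthest arrays and -0.13 on gene-level totals, and for miR-720 to -0.086 without those arrays. For miR-709 it was 0.91 with the bright-corner spots, which did not pass over the 24 relations computed (adjusted p = 0.267, exact permutation). The causes were not tested.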
